A study of Mus musculus with 18 samples.

Results

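Large networks of linked anchor regions were groups of 10 or more chromosome regions joined to each other, directly or through other members, by chromatin loops in mouse erythroblasts. Overlapping loop anchors on each autosome were merged into regions when they shared 1 bp or more, and each loop between different regions joined them by a link. Networks were then chosen by size, so the loops themselves chose the members and every value made from the same loops is a description without a test. The autosomes held 3672 networks, of which 555 (15.1%) had 10 or more regions. These 555 networks held 9876 of 19863 regions (49.7%) and 12687 of 20535 autosomal loops (61.8%). They are described beside the 1297 networks of 3 to 9 regions, called smaller networks, which held 6347 regions and 5975 loops. The other 1820 networks were single pairs of regions.

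The series compared G1E-ER4 cells, an erythroblast line, in a subline in which LDB1 carries an auxin-inducible degron (LDB1-AID). There were 9 Micro-C samples without treatment and 9 samples after 4 h of auxin, and both groups carried the tagged LDB1. Every sample's label gives the same subline, without an untagged control. The lists analysed here, 1 of loops and 1 of domains, belong to the series as a whole and hold only coordinates, so depth per sample is unknown here, no value could be set against auxin treatment and no marker could be used to check the labelled cell type.

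LDB1 is an adaptor protein without a DNA-binding domain of its own. It is recruited in erythroid cells by LMO2, TAL1 and GATA1, and its self-association can bring distant enhancers and promoters together. Loops are also formed where cohesin, a ring-shaped motor that extrudes DNA, is held by CTCF, a protein that binds an oriented motif and often marks the borders of topologically associating domains. A region with several loops may be seen as a hub, and loops that share regions as a network. A list of loops does not show that all contacts of a network occur in the same cell or at the same time, since each loop is an average over many cells. The mm9 assembly is the only build named in the submitters' processing notes. No sequence or gene of that assembly was used here, so networks are given by their positions.

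The 555 large networks had a median of 15 regions (quartiles 12 and 21, highest 75), 19 loops and 18 links. A link is a pair of regions joined by at least 1 loop, and 690 of 11958 links (5.77%) stood for 2 or more loops. The median extent, from the first to the last base of a network, was 1193 kb (95% interval from order statistics 1130 to 1252 kb), with quartiles of 811 and 1828 kb. Extents ran from 247.5 to 6833 kb, with 33 networks under 500 kb and 124 networks (22.3%) of 2 Mb or more. Smaller networks had a median extent of 430 kb (410 to 450 kb). The mean step between midpoints of consecutive regions of a network had a median of 78.6 kb (74.2 to 82.2 kb) in large networks. In smaller networks it was 110 kb (105 to 116 kb), and the large networks had the lower median on 19 of 19 autosomes. The step was 128 kb in networks of 3 to 5 regions, 87.3 kb in those of 6 to 9, 81.1 kb in those of 10 to 14, 74.3 kb in those of 15 to 24 and 75.7 kb in those of 25 or more. Most of the fall thus lay within the smaller networks. The step is made from the number of regions, which chose the classes, so the contrast is no separate trait of large networks. The spans of the links themselves did not separate the classes, with a median of 180 kb in both.

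**Figure D1:**
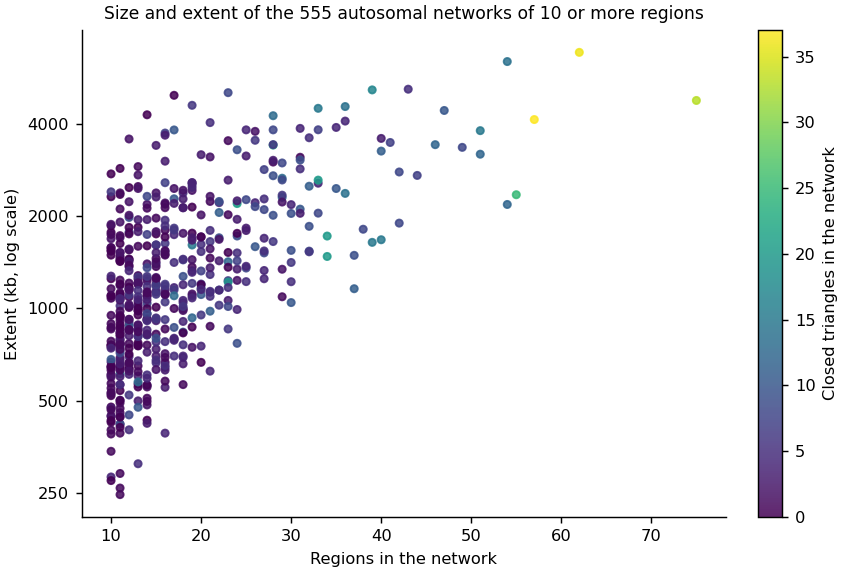
Extent in kb (log scale) against the number of regions for each of the 555 autosomal networks of 10 or more regions, with each point coloured by the number of closed triangles in the network. Extents spread from 247.5 to 6833 kb, and the networks with the most triangles, 37, 36 and 33, are among those with the most regions.

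At the threshold that chose the members, extent, links and the share with a triangle changed gradually, but the share held by a single domain fell more steeply. The 54 networks of exactly 10 regions had a median extent of 746 kb and a median of 10 links, and 61.1% of them had a closed triangle. The 85 networks of exactly 9 regions had a median extent of 642.5 kb and a median of 9 links, and 57.6% had a triangle. The share held by a single domain was 31.5% at 10 regions and 55.3% at 9.

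Links per region were higher in large networks, in part because of how a network is made. A network of a given number of regions needs 1 link fewer than it has regions to hold together, so the lowest possible ratio is 0.9 at 10 regions and 0.667 at 3. The median was 1.17 links per region (95% interval 1.15 to 1.19) in large networks and 0.8 (0.75 to 0.8) in smaller ones. In loops per region the medians were 1.24 and 0.8. Links beyond the number needed to connect a network, here called excess links, do not carry that floor. Per 100 regions there were 5.01 excess links in networks of 3 to 5 regions, 14.7 in those of 6 to 9, 21.8 in those of 10 to 14, 26.7 in those of 15 to 24 and 31.7 in those of 25 to 75 regions. Larger size therefore went with more excess links per region across all 5 size classes. The number of possible excess links also grows with the number of regions, so part of this rise is set by size itself.

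Partners, meaning the regions to which a region is linked, were unevenly shared. In large networks 3748 regions (38.0%) had 1 partner, 2441 (24.7%) had 2 and 3687 (37.3%, 95% Wilson interval 36.4 to 38.3%) had 3 or more. In smaller networks the shares were 50.1%, 29.9% and 19.9%. A region of a network of 3 regions can have at most 2 partners, so network size enters these shares. Regions with 3 or more partners made up 10.5% in networks of 3 to 5 regions and 29.2% in those of 6 to 9. The share was 34.4% in networks of 10 to 14, 36.9% in those of 15 to 24 and 40.8% in those of 25 or more. The largest step thus lay within the smaller networks. Regions with 5 or more partners made up 10.8% of regions in large networks (8.66 to 13.7% over the 19 autosomes) and 1.95% in smaller ones (0 to 2.94%), although a region of a smaller network can have at most 8. The highest number of partners was 13, reached by 1 region at 111927501 to 111947500 on chromosome 12. Its network, at 109410001 to 112818000, had 28 regions, 46 links and 21 triangles.

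**Figure D2:**
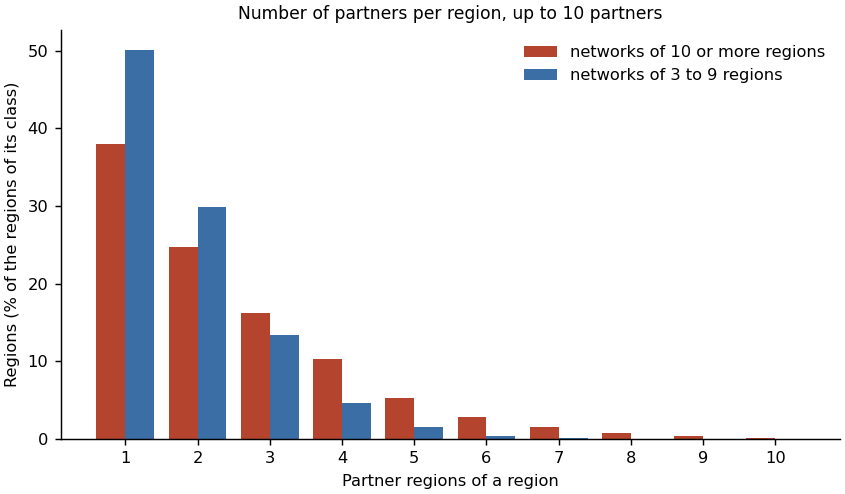
Share of regions, in percent of the regions of each class, by the number of partner regions from 1 to 10, with red bars for networks of 10 or more regions and blue bars for networks of 3 to 9 regions. The blue bars are higher at 1 and 2 partners and the red bars at 3 partners and above.

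Branching was the rule in large networks and chains were not found. None of the 555 was a simple chain, in which every region has at most 2 partners and no ring is closed. The Wilson interval of this count reached 0.687%, but the 555 are all such networks of the list and not a sample of them. None was a simple star, in which a single region holds every link. Among smaller networks of 4 to 9 regions, 143 of 858 (16.7%) were chains and 136 (15.9%) were stars. With 3 regions the shapes are the same, and 413 of 439 such networks had them, while the other 26 were triangles. Networks without any ring, chains and stars included, made up 42 of the 555 large networks (7.57%, 5.65 to 10.1%) and 928 of 1297 smaller ones (71.5%).

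The longest of the shortest routes through a network, counted in links, shows how drawn out it is. It had a median of 6 links in large networks and 2 in smaller ones, and it rose to a median of 10 in networks of 25 or more regions. The route took in a median of 45.5% of the regions of a large network, and in 231 networks (41.6%) it held at least 50% of them. On the other side, in 163 large networks (29.4%) a single region was linked to at least 50% of the other regions. The most connected region lay in the first or last 20% of the extent in 217 large networks (39.1%) and had partners on both sides in 362 (65.2%, Wilson interval 61.2 to 69.1%). In smaller networks these shares were 75.6% and 26.1%. These shares depend on network size itself, since in a network of 3 regions all but 1 region lie at an end, so the contrast is no separate trait of large networks. Where regions tied for the most partners, the one at the lowest position was taken, and this rule also enters the shares.

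Many partners did not by themselves make a region two-sided. Of regions in large networks with 2 partners, 24.9% had 1 on each side, and the share was 38.9% with 3 partners and 68.1% with 5 or more. In smaller networks the shares were 22.3%, 32.0% and 46.0%, the last over 124 regions. With 2 and with 3 partners the large networks had the higher pooled share, on 12 and 16 of 19 autosomes. The first and last region of a network cannot have partners on both sides, and they weigh more in a network of few regions. Network size thus enters this contrast, which is no separate trait of large networks. The class of 5 or more is not matched, since it ran to 13 partners in large networks and to 7 in smaller ones.

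Closed triangles, in which 3 regions are all linked to each other, are the simplest sign of a group of loops that is more than a chain. Large networks held 2260 triangles. At least 1 was present in 477 of 555 (85.9%, Wilson interval 82.8 to 88.6%), against 321 of 1297 smaller networks (24.7%). There were 50 large networks (9.01%) with 10 or more triangles. A further 36 large networks had a ring of 4 or more regions but no triangle. Of the links in large networks, 40.6% took part in a triangle, and in smaller networks 24.2%. Groups of 4 regions with all 6 links called were present in 109 large networks (19.6%) and in 26 of the 1297 smaller ones.

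Complete groups of 5 regions, with all 10 links in the list, were found in 5 large networks. The most compact lay at 180230001 to 180384000 on chromosome 1, where 5 regions within 154 kb, with no domain boundary among them, formed part of a network of 19 regions. On chromosome 17 the group at 84290001 to 84594000 covered 304 kb, also without a boundary, in a network of 23 regions. On chromosome 2 the group at 118307501 to 118720000 covered 412.5 kb with 1 boundary, on chromosome 11 the group at 78760001 to 79220000 covered 460 kb with 6 boundary coordinates (3 when those up to 10 kb apart count as 1), and on chromosome 16 the group at 8400001 to 8887500 covered 487.5 kb with 3 (2). Every one of these 5 groups had all its region midpoints inside a domain of the list.

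Triangle number rises with the number of chances to make one, so closure was counted per 2-step path, meaning 2 regions that share a partner. Of 30341 such paths in large networks, 6780 (22.3%, Wilson interval 21.9 to 22.8%) had a link between the outer regions as well. In smaller networks it was 1716 of 7635 (22.5%, 21.6 to 23.4%). The difference was under the spread over autosomes (22.3% pooled, SD 2.18 percentage points over 19 autosomes, in large networks), and large networks had the higher share on 10 of 19 autosomes. Per opportunity, closure was thus about the same in both classes, and the 5 size classes ran only from 20.8 to 23.1%. Paths of 1 network share regions and links, so the intervals, which cover counting alone and treat each path as independent, are too narrow. The share also rested on the merging of anchors, at 4.73% with identical anchor positions only (6.32% in smaller networks) and 13.99% with loops of the 5 kb grid alone (15.6% in smaller networks). This grid was inferred here from the start positions of the anchors and is not a label of the list.

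This similar total was also split by the place of the shared partner. Each triangle holds 1 closed path with the shared partner in the middle and 2 with it to 1 side. In large networks these were 2260 and 4520 paths, so the shares below are not separate results. Where the shared partner lay between the outer regions, so that the closing link spans both of the others, 23.7% of 9527 paths were closed in large networks and 34.2% of 1674 in smaller ones, and large networks had the lower share on 17 of 19 autosomes. Where the shared partner lay to 1 side of both, as in the loops of a stripe-like anchor, 21.7% of 20814 paths were closed in large networks and 19.2% of 5961 in smaller ones, with large networks higher on 14 of 19. Paths through a middle region made up 31.4% of paths in large networks and 21.9% in smaller ones. At a similar total closure, this mix of paths sets both contrasts. They therefore describe how paths were laid out, and not a difference in how often paths closed.

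Closure also depended on distance. For paths through a middle region, large networks closed 38.7% (Wilson interval 36.0 to 41.5%) when the outer regions were 100 to 200 kb apart, 31.8% at 200 to 400 kb, 18.2% at 400 to 800 kb and 9.08% beyond 800 kb. Smaller networks closed 45.3%, 40.4%, 27.7% and 11.2% at the same distances, so the share was lower in large networks at each of these distances. These are the same paths as above, so this contrast between the classes is no separate result. For paths with the shared partner to 1 side, large networks closed 11.7% under 50 kb, 28.6% at 50 to 100 kb and 12.5% beyond 800 kb. The shortest link of these networks spanned 14 kb, so part of the paths under 50 kb could not be closed by a link of a listed length.

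**Figure D3:**
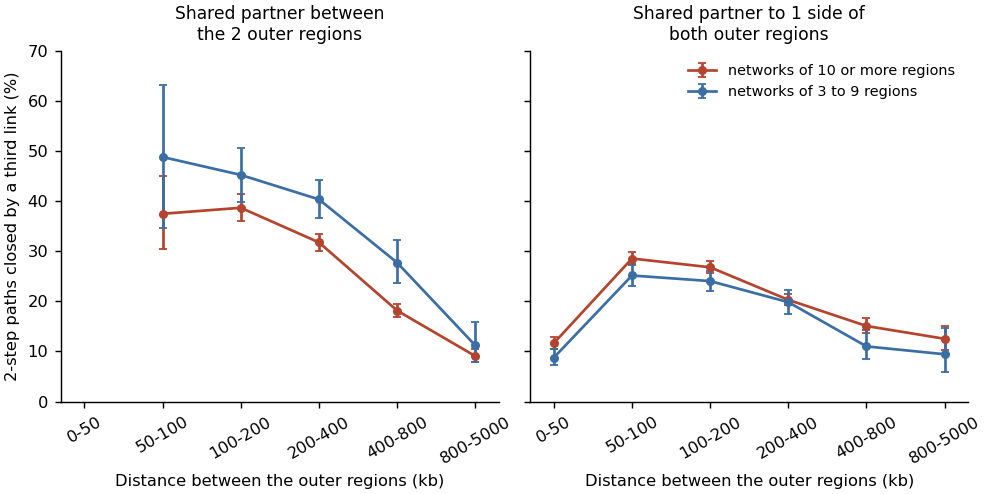
Share of 2-step paths whose outer regions are linked too, in percent with 95% Wilson intervals, against the distance between the outer regions in kb, for paths whose shared partner lies between the outer regions (left) or to 1 side of both (right). Red marks networks of 10 or more regions and blue networks of 3 to 9 regions, and in the left plot red lies below blue at each distance while in the right plot it lies above it.

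Order along the chromosome was followed loosely. Only 2721 of 9321 pairs of consecutive regions within large networks (29.2%) were linked to each other. The share was 42.2% in smaller networks, but there the size sets a floor, since a network of 3 regions must link at least 1 of its 2 consecutive pairs. Links thus often passed over members that lay between their ends. Among pairs of links in 1 large network that overlapped without sharing a region, 46.0% crossed, with 1 end of each inside the other, and the rest were nested. In smaller networks 44.1% crossed, and neither class was steadily higher over the autosomes (10 of 19).

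Many links of large networks were bridges, links whose loss would split the network. They made up 5508 of 11958 links (46.1%) in large networks and 70.3% in smaller ones. Of the bridges in large networks, 3748 were the sole link of a region with 1 partner, so their loss would cut off that region alone. In smaller networks it was 3183 of 3991. No large network was free of bridges. Without its most connected region the largest remaining piece of a large network kept a median of 60% of the regions, and 289 of the 555 (52.1%) fell below 10 regions in 1 piece. The loss of a single link, the worst for each network, left a median of 70.4% of the regions in 1 piece, and 211 networks (38.0%) fell below 10. Bridges in large networks had a median span of 169 kb (164 to 175 kb) and links inside rings 192 kb (185 to 198 kb). In smaller networks the order was the other way, with 184 kb for bridges and 168 kb for links inside rings.

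Domains, stretches of chromosome that contact themselves more than their surroundings, were not used to choose the networks. All region midpoints of a network lay inside a single domain for 131 of 555 large networks (23.6%, Wilson interval 20.3 to 27.3%) and for 909 of 1297 smaller ones (70.1%, 67.5 to 72.5%). Domains in the list are nested, and these shares rest on the outermost ones. With only the domains that hold no other domain, they were 1.80% and 33.8%. Over autosomes the share in large networks ran from 8.70% on chromosome 19 to 42.9% on chromosome 11, and it was below that of smaller networks on 19 of 19. A boundary was counted at each distinct start or end of a domain, and 55.8% of the 16231 autosomal boundaries had another within 10 kb. The median large network had 8 such coordinates inside its extent (quartiles 5 and 13, highest 47), and 5 (quartiles 3 and 8, highest 27) when boundaries up to 10 kb apart counted as 1. It contained 3 whole domains and had regions in 4 domains that lie inside no other domain. The medians for smaller networks were 2 boundaries (1 when counted in this way), 0 whole domains and 2 outermost domains. Outermost domains can overlap each other, so a region may count for more than 1. Only 2 large networks had no boundary inside. These were at 46300001 to 46590000 on chromosome 11, with 11 regions in 290 kb, and at 19252501 to 19527500 on chromosome 8, with 10 regions in 275 kb.

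Extent is tied to the size that chose the networks, so networks of similar extent were set side by side. Among those of 500 to 1000 kb, 77 of 169 large networks (45.6%, Wilson interval 38.2 to 53.1%) lay inside 1 domain, and 200 of 347 smaller ones (57.6%, 52.4 to 62.7%). Among those of 1000 to 2000 kb it was 13.1% (9.33 to 18.1%) of 229 large networks and 25.6% (19.7 to 32.4%) of 180 smaller ones. The gap of the whole classes was therefore much narrower at similar extent. It was not fully matched, since median extents were 760 and 660 kb in the first of these classes and 1344 and 1370 kb in the second. None of the 124 large networks over 2000 kb lay in 1 domain. Boundaries lay at 6.66 per Mb of extent in large networks, at 5.61 per Mb in smaller ones and at 6.74 per Mb over the autosomes as a whole. With boundaries up to 10 kb apart counted as 1, the densities were 3.92, 3.51 and 4.36 per Mb.

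**Figure D4:**
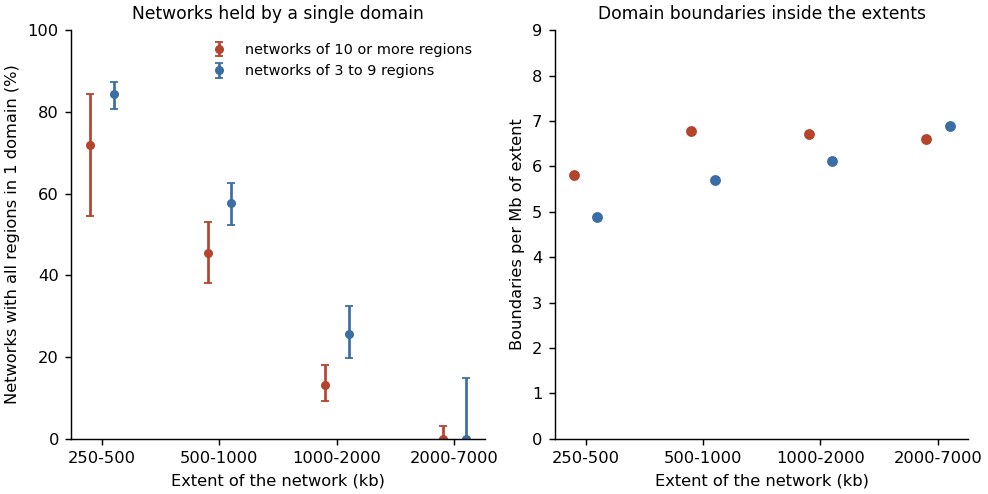
Left, share of networks with all region midpoints inside 1 domain, in percent with 95% Wilson intervals, by extent in kb. Right, domain boundaries per Mb summed over the networks of each extent class. Red marks networks of 10 or more regions and blue networks of 3 to 9 regions. The red shares lie below the blue ones up to 2000 kb and both are 0 above it.

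Single links lay inside 1 domain more often than whole networks did, which follows in part from how both are counted. A network inside a domain has all its links there, and a link is shorter than its network. Of 11958 links in large networks, 10211 (85.4%, Wilson interval 84.7 to 86.0%) had both midpoints inside 1 domain, and in smaller networks 87.8%. For links, large networks had the lower share on 15 of 19 autosomes. Over all autosomal loops, 61.8% of which belong to large networks, the share was 86.4%. Bridges in large networks were inside 1 domain in 83.9% of cases and links inside rings in 86.7%. In smaller networks these shares were 86.1% and 91.8%. Triangles were inside 1 domain in 82.6% of 2260 cases, with a median distance of 305 kb between their outermost regions. In smaller networks it was 87.2% of 572 triangles, with a median of 256 kb. Large networks were lower on 15 of 19 autosomes for links inside rings, on 15 for triangles and on 12 for bridges. All links of 150 large networks lay inside domains, and 19 of these 150 were nevertheless held by no single domain. When the loops that lay in no single domain were left out, 17742 loops (86.4% of the autosomal list) remained, which formed 425 networks of 10 or more regions in place of 555, the largest with 49 regions.

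Regions of large networks were no closer to domain boundaries than those of smaller ones, at 25.3% and 25.1% within 20 kb. Within large networks the share rose with the number of partners. It was 21.1% for regions with 1 partner (Wilson interval 19.8 to 22.4%), 23.6% with 2, 27.5% with 3 or 4 and 38.2% (35.3 to 41.2%) with 5 or more. In smaller networks it was 22.6%, 26.1%, 29.2% and 39.5% in the same order. Distance was taken from the midpoint of a region, so a wider region did not come closer by its width. Width did move with network size. Regions merged from more than 1 anchor position made up 51.7% of regions in large networks and 37.8% in smaller ones. With identical anchor positions only, without merging, 78 networks of 10 or more regions were left.

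Large networks lay among other networks. Their extents covered 31.9% of the autosomal span, from 21.6% on chromosome 3 to 55.9% on chromosome 19. The extents of 179 large networks (32.3%) overlapped that of another large network without a shared region, and 28 lay wholly inside another. Of all regions inside the extents, counted once per extent, 27.2% belonged to other networks of any size. Numbers ran from 1.60 large networks per 10 Mb on chromosome 14 to 3.95 on chromosome 19. The share of loops that belonged to them ran from 52.2% on chromosome 5 to 72.3% on chromosome 19. Chromosome 11, with 13.2 loops per Mb, had 42 large networks and 71.8% of its loops in them, and chromosome 14, with 6.09 loops per Mb, had 19 and 54.1%. The number of networks is made from the same loops as this density. The X chromosome was not part of the set, and it held 3 networks of 10 or more regions, the largest with 14.

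Networks named here are those with the highest values of a measure. The network with the most regions lay at 133820001 to 138582500 on chromosome 1. It had 75 regions, 123 loops, 106 links and 33 triangles over 4763 kb, with 46 boundary coordinates inside (22 when those up to 10 kb apart count as 1) and regions in 11 outermost domains. Its most connected region, at 134247501 to 134280000, had 12 partners, 6 on each side, at 23.2 to 667.5 kb. That is only 16.2% of the other regions, and without it 70 regions stayed in 1 piece. The loss of a single link, in contrast, left 40 regions in the largest piece. Its longest shortest route was 17 links, and 12 of its links lay in no single domain. Bridges made up 36 of its 106 links, and 23 of these bridges were the sole link of a region with 1 partner. The largest set of regions that stayed connected after the loss of any 1 region of the set held 17.3% of the network.

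Chromosome 2 held a pair of networks with 37 and 36 triangles, the most in the set. The first, at 164570001 to 168697500, had 57 regions and 95 links and closed 32.3% of its 2-step paths. No region of it had more than 8 partners, and more than 1 region had 8. Removing the one at the lowest position, at 164887501 to 164912500, left the other 56 in 1 piece. Another, 1162.5 to 1182.5 kb from the first base of the network, held the only link of a region with 1 partner. The second, at 167930001 to 174762500, had the largest extent of all, 6833 kb, with 62 regions and 98 links. Only 60.2% of its links lay inside a domain and its median link was 391 kb, against a median of 180 kb over all links of large networks. Its most connected region, at 170327501 to 170352500, had 9 partners at lower and 3 at higher positions, as far as 1831 kb away. The extents of these 2 networks overlap, at 167930001 to 168697500, without a shared region.

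Among networks of like size the density of links differed. The network at 79292001 to 81640000 on chromosome 10 had 55 regions in 2348 kb, 43.3 kb apart, with 87 links and 25 triangles. The network at 119440001 to 125817500 on chromosome 8 had 54 regions in 6378 kb, 120 kb apart, with 71 links, 14 triangles and 47 boundary coordinates, the most in the set (27 when those up to 10 kb apart count as 1). In the first 94.3% of links lay inside a domain and in the second 84.5%. The network at 116047501 to 121230000 on chromosome 5, with an extent of 5183 kb, had 43 regions but only 47 links and 5 triangles, and 20 of its links lay in no single domain.

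The most drawn-out networks had a longest shortest route of 18 links. One, at 68397501 to 70580000 on chromosome 11, had 54 regions in 2183 kb. Another on the same chromosome, at 98080001 to 101262500, had 51 regions in 3183 kb, and the third, at 29660001 to 33010000 on chromosome 17, had 49 regions in 3350 kb. Even these were not chains, with 26, 22 and 18 regions of 3 or more partners and 12, 12 and 8 triangles. Their most connected regions held 18.9%, 16% and 12.5% of the other regions as partners.

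At the other end stood networks with a single dominant region. On chromosome 15 the region at 61807501 to 61824000 was linked to 10 of the 11 other regions of its network, 90.9%, and all 10 lay at higher positions, from 115.5 to 1758 kb away. Of these partners 6 lay within 439 kb, 1 at 825.5 kb and 3 between 1617 and 1758 kb. This network, at 61807501 to 63580000, had 17 links, all inside a domain, and 7 triangles, of which 6 included the dominant region. On chromosome 3 the region at 153310001 to 153342500 was linked to 8 of the 9 other regions, 4 on each side, at 61.2 to 891 kb, and the network, at 152430001 to 153534000, had no triangle at all. On chromosome 9 the region at 92097501 to 92120000 was also linked to 8 of 9, with 1 partner at a lower and 7 at higher positions, and all 4 triangles of the network, at 92037501 to 92780000, included it.

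**Figure D5:**
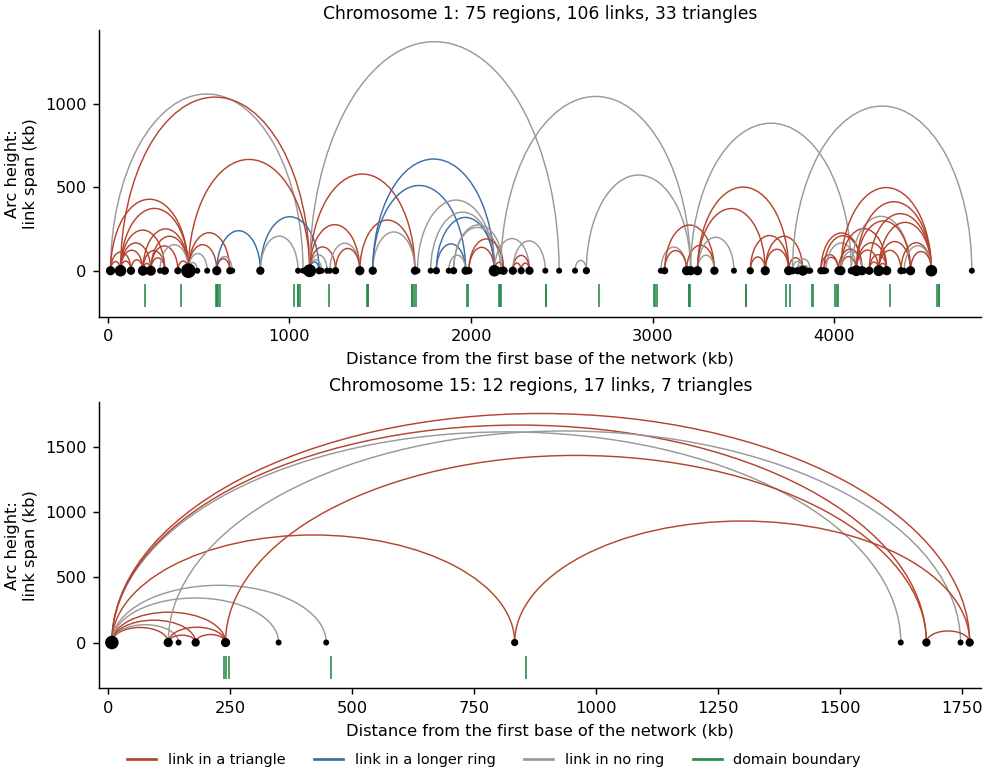
Arc maps of the network with the most regions, on chromosome 1 (top), and of the network in which a single region has the largest share of the others as partners, on chromosome 15 (bottom), against the distance in kb from the first base of the network. Each arc is a link with its height equal to its span in kb, coloured by whether it is part of a triangle (red), of a longer ring (blue) or of no ring (grey), dots are regions with an area that grows with the number of partners, and green ticks are domain boundaries. In the top network the arcs of triangles are densest toward both ends of the extent, and in the bottom network most arcs start at the first region.

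The 6 autosomal regions with 14 or more loops to other regions all lay in large networks, as did all 65 with 10 or more, which the number of their partners largely requires. Their surroundings differed widely. The region at 17432501 to 17460000 on chromosome 10 had 12 partners in a network of 16 regions with 16 links and 1 triangle, close to a star. The region at 145097501 to 145157500 on chromosome 4 had 10 partners in a network of 24 regions with 45 links and 21 triangles, and 11 of the triangles included it. This network was unusual, with 0 of its 45 links inside a domain and only 2 boundary coordinates in 2197.5 kb. The region was 60 kb wide, while the widest region of a large network had a median width of 22.5 kb. The region at 117006001 to 117047500 on chromosome 12 had 11 partners in a network of 34 regions with 55 links and 20 triangles, 6 of them at the region. On chromosome 17 the region at 45850001 to 45877500, with 12 partners, was part of 6 of the 8 triangles of a network of 32 regions. Regions with similar numbers of loops thus lay in networks that held from 1 to 21 triangles.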

How the data were processed

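Per the labels' protocols, chromatin from 18 Micro-C samples was digested with micrococcal nuclease, ligated and selected for dinucleosomes. The authors deposited coordinates of 20926 loops and 13483 domains on mm9, per the submitters' processing notes. The callers, resolutions, filters and the samples behind each list are not given in the sources used here. Starts were read as counted from 0 and are printed counted from 1. X was left out, as were 19 autosomal loops inside 1 region. Networks and their measures were computed with Python 3.11.15 (networkx 3.6.1, pandas 2.3.3, numpy 2.4.6, scipy 1.17.1) and drawn with matplotlib 3.10.9. The code was tested on simulated data of known shape. Shares carry 95% Wilson intervals and medians 95% order-statistic intervals, which cover counting only. No test was made, since neither list gives values by sample, and the spread over 19 autosomes is given instead. Named networks are the 5 with most regions, and the 3 highest for extent, triangles, longest shortest route, boundaries and share of partners held by a region, ties going to the lower chromosome and start. Complete groups of 5 regions, networks without a boundary, regions with 14 or more loops and the region with most partners were chosen after their values were seen. The networks and measures were chosen with earlier results of these lists known. The number of per-sample columns without a sample was 0.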

Additional observations from a re-analysis of the deposited data

How the results depend on the processing

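Of 42 values under 10 alternatives, 13 stayed within 1.5 times the main count or within the 95% interval of the main value, and 29 moved. With identical anchor coordinates in place of merged ones there were 78 large networks, with a median extent of 780 kb, 0.929 links per region, 4.73% of 2-step paths closed and 41.0% in 1 domain. With anchors up to 10 kb apart merged, the values were 1768 kb, 1.31, 30.9% and 12.7%, and the number, 433, stayed within the range. With an overlap of 5 kb or more required they were 1045 kb, 1.10, 18.6% and 31.2%, with 555 networks. The 5 kb grid alone gave 124 networks, 882.5 kb, 1, 13.99% and 35.5%, and loops of 500 kb or less gave 782.5 kb, 23.4% and 41.5%. From 8 regions up the values were 1070 kb, 1.13 and 31.4%, and from 15 up 289 networks, 1565 kb, 1.22 and 14.5%. Domains that hold no other domain gave 1.80% in 1 domain, while outermost domains gave 23.6% by construction. Counting boundaries up to 10 kb apart as 1, an alternative chosen after seeing the data, moved the median per large network from 8 to 5. Adding X gave 558 networks. Large networks kept the longer extent and more links per region in 8 of 8 alternatives each and the lower share in 1 domain in 10 of 10. Closure was lower than in smaller networks in 7 of 8 and higher from 8 regions up (22.5% against 21.6%). At the main setting large networks had the higher closure on 10 of 19 autosomes, so its direction was not steady over autosomes. The number of large networks and closure rest on how anchors are merged. No paired analysis was possible because neither list gives values by sample, so the replicate block was not run. Depth is unknown here, and an absent link may be a contact below the callers' thresholds, which limits every count of open paths.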
